A study of Mus musculus with 14 samples.

Results

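Spns2 encodes a transporter that carries sphingosine 1-phosphate out of cells, and 8 further genes make, sense or break down the same lipid: Sphk1, Sphk2, S1pr1, S1pr2, S1pr3, Sgpl1, Sgpp1 and Sgpp2. The list was selected by measured values of these same libraries, since Spns2 had been chosen by its lower value in muscle of mice with endothelial c-Myc overexpression on western diet than in controls on that diet. The other 8 genes act in the same pathway. All 9 were found by symbol among the 54532 genes of the count table. Because of that choice, every difference of a member between those western diet groups is given below as a description, with no p.

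Sphingosine 1-phosphate is a signalling lipid made inside cells by phosphorylation of sphingosine, exported by carriers such as Spns2, and read at the cell surface by G protein-coupled receptors. In vessels, endothelial Spns2 supplies part of the lipid in lymph and blood, and signalling through S1pr1 keeps the endothelial barrier tight and limits sprouting. Inside the cell the lipid is either dephosphorylated back to sphingosine or split for good by a lyase.

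The study measured messenger RNA of whole skeletal muscle by bulk sequencing in male FVB/N mice that differed in genotype and in diet, to ask how endothelial c-Myc bears on the response to an obesity-inducing diet. Its 14 libraries form 4 groups, with 3 of control genotype on control diet (CT-CTD), 3 of control genotype on western diet (CT-WD), 4 of endothelial c-Myc overexpression on control diet (OE-CTD) and 4 of overexpression on western diet (OE-WD). The count tables held between 21833839 and 28519159 counts per library.

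In the overexpression mice, Tet-O-Myc, a human MYC transgene on the Y chromosome, is driven by a tetracycline transactivator (tTA) under the Cdh5 (VE-cadherin) promoter, which is active in endothelial cells, and is silent while doxycycline is fed. Controls were littermates that carry Tet-O-Myc without tTA. The doxycycline diet (#TD.01306) was withdrawn at 4 to 6 weeks of age, and the mice were then given control diet (#TD.08485) or western diet (#TD.88137) for 20 weeks according to the labels, while the text of the study gives both this time and, for the sequenced muscle, a shorter one. The study took soleus and gastrocnemius muscle, and the labels do not say which of them a library holds. The group sizes in a legend of the study also differ from those of the labels, which are used here; every difference between genotypes or diets below rests on them. In the library codes, all 4 OE-WD libraries share 1 number, 3 of the 4 OE-CTD libraries share another, and no number is shared between genotypes; what the codes stand for is not given, so genotype and whatever they record cannot be told apart, nor is it said that libraries sharing a number are separate mice. The codes of replicate 1 of both control groups stand apart from those of the other 4 control libraries.

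Some libraries stood apart in their values too. OE-CTD replicate 4 and OE-WD replicate 4 had the highest shares of mitochondrially encoded counts (14.93% and 14.54%, against 9.66% to 12.76% in the others) and the lowest TMM factors (0.888 and 0.899). Counting differences between pairs of libraries, as chi-square per degree of freedom, were 7.502 to 10.2 among OE-CTD replicates 1 to 3 and 35.6 to 41.2 between these and replicate 4. In OE-WD, where all share 1 code number, they were 8.17 to 14.5 among replicates 1 to 3 and 37.2 to 40.4 between these and replicate 4. Among control libraries of a group they were 16.2 to 48.1.

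All 9 genes but Sgpp2 had enough counts to be tested, and their levels per base of transcript, as the FPKM computed by the authors (fragments scaled to transcript length and library size), spread over a wide range. Spns2 had the highest mean over the 14 libraries, at 20.8 FPKM (range 9.82 to 41.4), followed by S1pr1 at 16.4 FPKM (10.8 to 23.0). These genes overlapped, with Spns2 above S1pr1 in 6 of 14 libraries, and those 6 were the 6 control genotype libraries. Then came Sphk2 at 4.74 FPKM (3.79 to 5.73) and Sgpp1 at 3.51 FPKM (3.06 to 4.15), with Sphk2 above Sgpp1 in 14 of 14 libraries although their ranges overlap. S1pr3 at 2.40 FPKM (1.69 to 2.87) and Sgpl1 at 2.38 FPKM (1.28 to 3.12) could not be ordered, as S1pr3 was above in 7 of 14 libraries. S1pr2 at 0.429 FPKM (0.220 to 0.692) and Sphk1 at 0.324 FPKM (0.108 to 0.510) were far below these and overlapped each other, with S1pr2 above in 12 of 14. Sgpp2 was last, at 0.00983 FPKM.

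The order at the top of the list turned with genotype. Spns2 led in CT-CTD at 34.1 ± 8.95 FPKM (SD, n = 3) against 13.7 ± 2.62 for S1pr1, and in CT-WD at 31.6 ± 7.68 (n = 3) against 18.5 ± 3.99. S1pr1 led in OE-CTD at 16 ± 1.16 FPKM (SD, n = 4) against 11.5 ± 1.62 for Spns2, and in OE-WD at 17.2 ± 2.20 (n = 4) against 12.2 ± 0.667. On control diet the exporter was thus the most abundant transcript of the list per base in control muscle, and the receptor in overexpressing muscle; the order on western diet rests on the values that chose Spns2.

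Within a gene, levels are given as CPM, that is, counts relative to library size after scaling with edgeR's TMM factors. Spns2 (ENSMUSG00000040447, chr11 72451638 to 72489904, minus strand, GRCm38) measured 90.6, 136 and 156 CPM in CT-CTD and 86.0, 131 and 137 CPM in CT-WD. It measured 48.3, 36.9, 39.2 and 47.6 CPM in OE-CTD and 46.6, 42.9, 48.7 and 43.5 CPM in OE-WD. The genotypes did not overlap on either diet: replicate 1 of each control group was the lowest of its group, and the lowest control library lay 1.76 times above the highest overexpression library. Both of these are western diet libraries, so this gap rests on the choosing values. How many of all genes keep the genotypes apart in this way is not given, here or for the genes below. Overexpression libraries lay close together, while control libraries were spread over nearly a doubling, with a coefficient of variation of 9.93% over the 8 overexpression libraries and 22.8% over the 6 control libraries.

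On control diet, whose libraries were not part of the comparison that chose the gene, Spns2 fell in the libraries labelled as endothelial c-Myc overexpression. Its mean was 43.0 ± 5.80 CPM (SD, n = 4) in OE-CTD against 127 ± 33.4 CPM (n = 3) in CT-CTD, which is 2.97-fold lower. The log2 fold change of OE-CTD against CT-CTD was -1.57 ± 0.17 (SE), all 4 OE-CTD libraries were below all 3 CT-CTD libraries, and the adjusted p was 0.00122 by edgeR's quasi-likelihood test with Benjamini-Hochberg adjustment over 15458 genes (unadjusted p 1.58e-07). By p it stood at rank 2 of the 15458 genes tested. The log2 fold change was -1.76 without replicate 1 of both control groups and -1.62 without replicate 4 of both overexpression groups, the libraries that stood apart, alternatives chosen after seeing the data. This comparison shares no library with the one that chose Spns2, though both come from a fit that shares its estimate of the spread. The list was also drawn up with earlier results of these data known, so the p on control diet is not fully free of that choice.

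**Figure D1:**
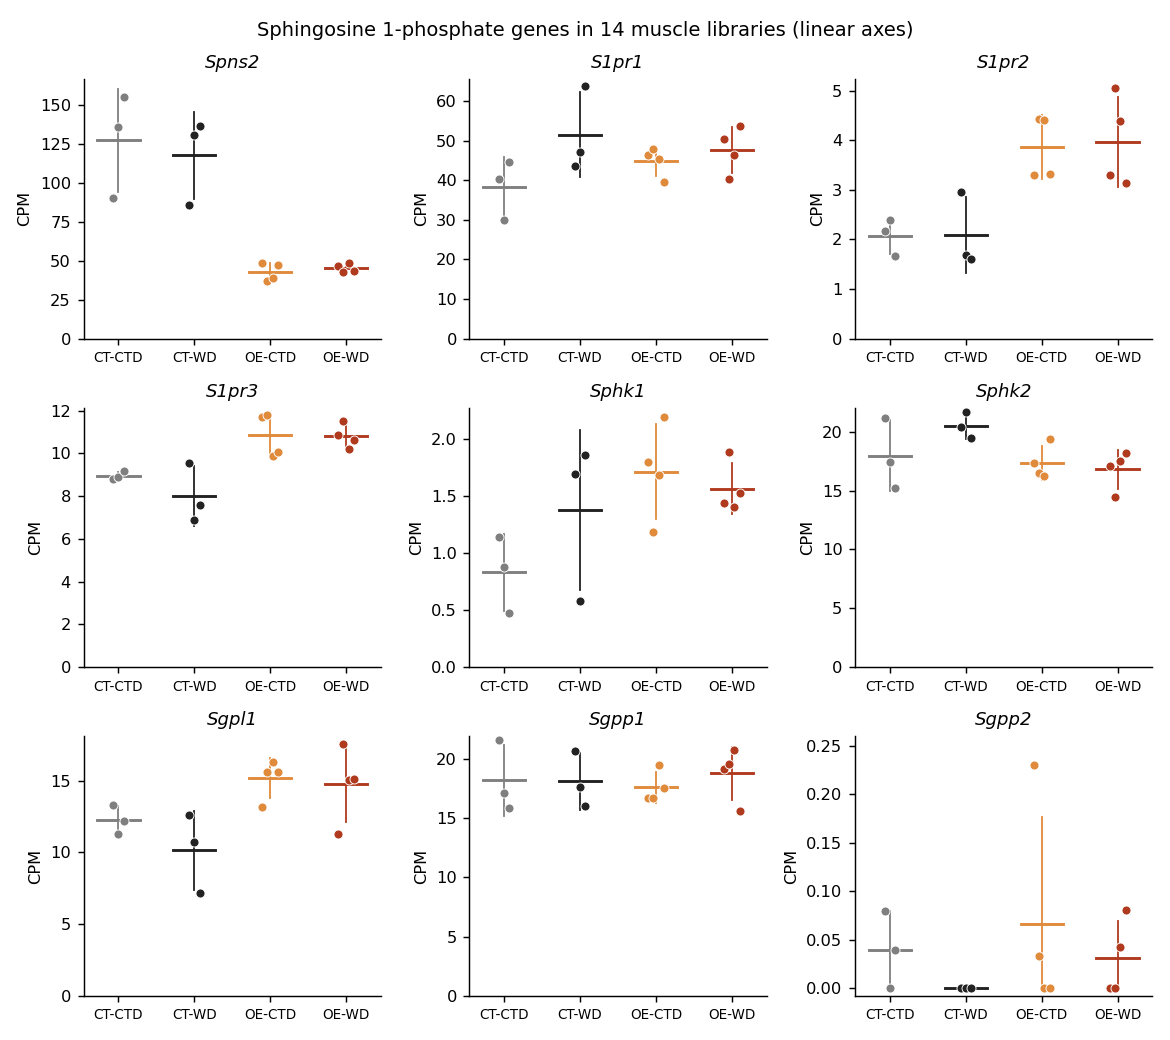
TMM-scaled counts (CPM, vertical axis) of the 9 sphingosine 1-phosphate genes, 1 panel a gene, in the 14 libraries by group; dots are libraries, horizontal lines group means and vertical bars 1 SD each way, ending at 0 where the SD is larger than the mean. All 8 overexpression libraries lie at 36.9 to 48.7 CPM for Spns2, below all 6 control libraries, and S1pr2 and S1pr3 show the opposite order. The share of all genes with such a separation is not given.

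On western diet, the comparison by which the gene was chosen, Spns2 was 2.59-fold lower in OE-WD (45.4 ± 2.72 CPM, SD, n = 4) than in CT-WD (118 ± 27.8 CPM, n = 3), a log2 difference of -1.38 ± 0.17 (SE). Each diet comparison has one of the choosing groups as an arm, so the values of Spns2 are a description there as well. Its log2 fold change was -0.11 ± 0.19 (SE) for CT-WD against CT-CTD and 0.08 ± 0.16 (SE) for OE-WD against OE-CTD. The control genotype estimate changed sign, to 0.06 without CT-CTD replicate 3 and to 0.07 without CT-WD replicate 1. Each of these leaves a replicate number in 1 control group only. The estimate was -0.12 without replicate 1 of both control groups and -0.11 with a replicate block within genotype. At every replicate number the CT-WD library was below the CT-CTD library. The difference between both diet responses was 0.19 ± 0.25 (SE) on the log2 scale, given without a p since it contains the choosing comparison.

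Which difference Spns2 shows rests on the labels. If the names of CT-WD and OE-CTD were exchanged, an alternative run because a legend of the study gives other group sizes, the large differences would be those between diets, -1.57 for CT-WD against CT-CTD and -1.38 for OE-WD against OE-CTD. The genotype differences would then be -0.11 on control diet and 0.08 on western diet. Over all genes, those past the fold with an unadjusted p under 0.05 would number 1101 for diet in controls, 887 for diet with overexpression and 212 for genotype on western diet, where the labels give 471, 212 and 887. The exchange would also give the group sizes of that legend, with 3 libraries on control diet and 4 on western diet in each genotype. In the study's text, at its own thresholds, fewer genes differ between genotypes on western diet than between diets in either genotype. The counts under exchanged names have that order, and those under the labels do not. The labels are followed here, although the group sizes of that legend and the order of the counts both match the exchanged names. Which naming is right was not tested. A genotype difference in Spns2 thus stands only as far as the labels do.

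Against the whole transcriptome, the members can be read as follows, where altered means a fold of more than 1.5 together with an adjusted p under 0.05. For OE-CTD against CT-CTD 1 of 8 tested members was altered, Spns2, beside 295 of all 15458 genes (1.91%; 183 higher and 112 lower). With the same fold and an unadjusted p under 0.05, 3 members passed, Spns2, Sphk1 and S1pr2, beside 1101 genes (7.12%). The count over all genes was 64 without CT-CTD replicate 3, 99 without CT-CTD replicate 2, 102 without OE-CTD replicate 2 or 3, 170 without OE-CTD replicate 1 and 440 without CT-WD replicate 1, the first and last being the lowest and highest counts without 1 library. By other fits it was 488 (DESeq2), 570 (edgeR with no filter on low counts), 437 (these 2 groups alone), 108 and 177 (limma with a pseudocount of 1 and 0.1) and 44 (limma with no filter). The members' median log2 fold change was 0.25, against -0.0007 for all genes.

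For CT-WD against CT-CTD 0 of 8 members and 0 genes (0%) were altered by edgeR, with 0 members and 471 genes (3.05%) past the fold with an unadjusted p under 0.05 and 0 members altered by DESeq2 or limma. The medians were 0.0070 for the members and 0.0071 for all genes. For OE-WD against OE-CTD 0 of 8 members and 1 gene (0.00647%) were altered by edgeR, with 0 members and 212 genes (1.37%) past the fold with an unadjusted p under 0.05 and again 0 members altered by DESeq2 or limma, and medians of 0.0146 and 0.0048. Over all genes, CT-WD against CT-CTD gave 27 altered genes by DESeq2, 88 by edgeR with no filter on low counts, 10 with a replicate block within genotype (the numbers taken as pairs), 41 without CT-WD replicate 1, 31 without replicate 1 of both control groups and 295 with the names exchanged as described above, where Spns2 was among them. As labelled, no sphingosine 1-phosphate gene was called for western diet in either genotype in any of these fits.

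For OE-WD against CT-WD nothing is read from the counts, since the choice of Spns2 fixed its place in them: 1 of 8 members (Spns2) and 87 genes (0.563%) met both thresholds, and 2 members (Spns2 and S1pr2) and 887 genes (5.74%) met the fold with an unadjusted p under 0.05; the medians were 0.11 and 0.0056. Without 1 library the count over all genes was between 4 (OE-WD replicate 2) and 905 (CT-WD replicate 1). For the interaction of diet and genotype, which holds the same values and is likewise not read, 0 of 8 members and 0 genes (0%) did by edgeR and 0 members by DESeq2 or limma, with 0 members and 417 genes (2.7%) past the fold with an unadjusted p under 0.05 and medians of 0.0579 and -0.0057.

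**Figure D2:**
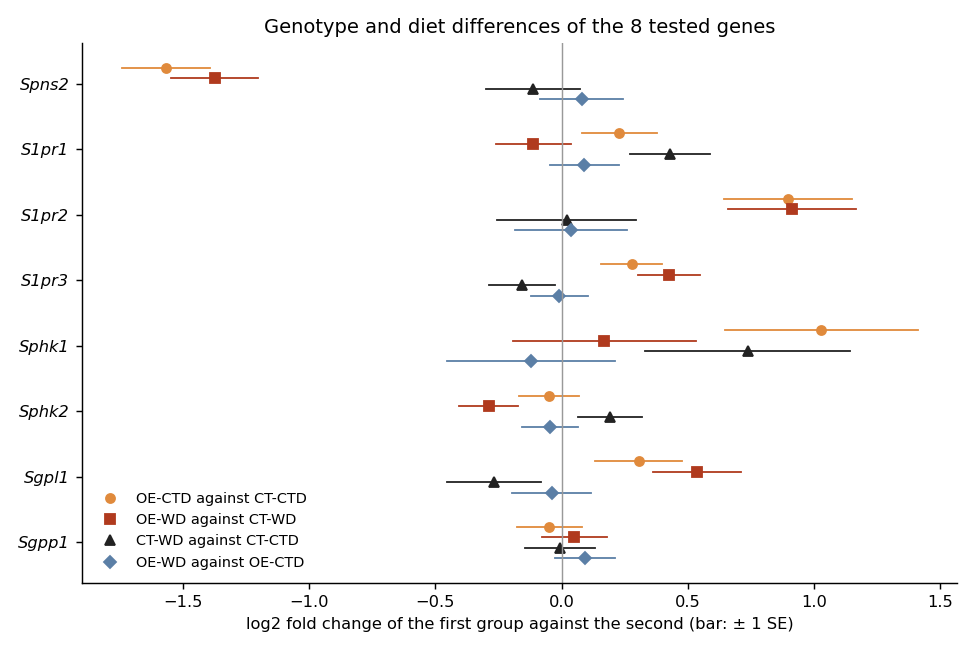
Log2 fold change with 1 SE each way from the edgeR fit (horizontal axis) of the 8 tested sphingosine 1-phosphate genes in each of 4 comparisons. Spns2 lies at -1.57 and -1.38 in both genotype comparisons and near 0 in both diet comparisons; the OE-WD against CT-WD values include the one that chose Spns2 and carry no test.

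Because the libraries are of whole muscle, they do not show which cells hold the Spns2 RNA. Fewer endothelial cells, less Spns2 RNA per endothelial cell and a difference in other cells cannot be told apart by a lower Spns2 count. Endothelial genes were measured beside it. All 16 of the listed endothelial markers were tested and none was at 0, the most abundant being Eng, a coreceptor of endothelial TGF-beta signalling, at 94.6 CPM. Their summed level was 601, 612 and 652 CPM in CT-CTD, 710, 674 and 787 CPM in CT-WD, 731, 736, 714 and 664 CPM in OE-CTD and 770, 763, 781 and 772 CPM in OE-WD. The marker sum was lowest in CT-CTD, where Spns2 was highest. Of the 16 markers 0 were altered for OE-CTD against CT-CTD by edgeR, 13 had a positive log2 fold change, and their median was 0.26 against -0.0007 for all genes. Tek, the angiopoietin receptor, was 1.44-fold higher (log2 0.52 ± 0.11, SE; adjusted p 0.0232 by edgeR's quasi-likelihood test with Benjamini-Hochberg adjustment), under the fold asked for. For OE-WD against CT-WD 0 of the 16 were altered, 9 had a positive log2 fold change, and their median was 0.18 against 0.0056 for all genes. There 1 marker was lower at the unadjusted p with the fold. Cdh5 was 1.38-fold higher (log2 0.46 ± 0.09, SE; adjusted p 0.0322 by the same edgeR test), again under the fold. The part of endothelial content in the results for the listed genes was not tested.

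Set against that sum, Spns2 was 15.1, 22.2 and 23.9 CPM per 100 endothelial marker CPM in CT-CTD and 12.1, 19.4 and 17.4 in CT-WD. In OE-CTD it was 6.61, 5.02, 5.49 and 7.17, and OE-WD libraries gave 6.05, 5.63, 6.24 and 5.64. The genotypes again did not overlap, though the western diet ratios, among them the lowest control one, hold the values that chose Spns2. On control diet the difference in mean log2 ratio, OE-CTD minus CT-CTD, was -1.735. S1pr1, a receptor that is itself enriched in endothelium, gave 4.87 to 8.12 CPM per 100 over the 14 libraries, with overlapping genotypes.

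**Figure D3:**
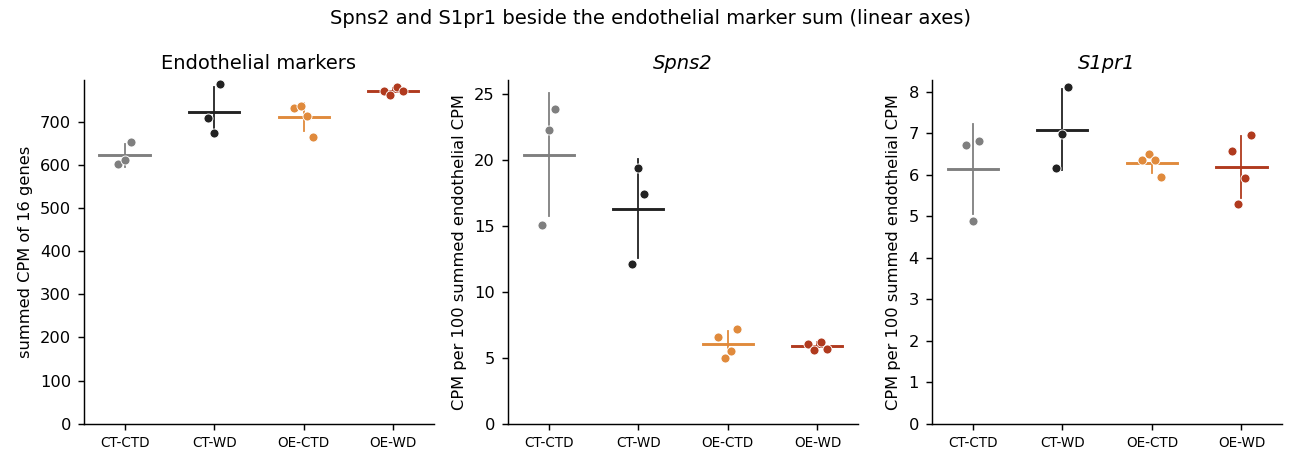
Summed CPM of 16 endothelial markers, and Spns2 and S1pr1 CPM per 100 CPM of that sum, in each library by group; dots are libraries and bars mean and SD. Spns2 per 100 endothelial CPM is 5.02 to 7.17 in the overexpression libraries and 12.1 to 23.9 in the controls, while S1pr1 overlaps between genotypes. The western diet values of Spns2 are those that chose it.

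The kinases make sphingosine 1-phosphate, Sphk1 mainly in the cytosol and at the plasma membrane and Sphk2 largely at internal membranes and in the nucleus. Sphk1 (chr11 116530925 to 116536674, plus strand) was scarce, with 12 to 54 counts per library. It measured 1.15, 0.879 and 0.477 CPM in CT-CTD and 1.80, 1.19, 1.69 and 2.19 CPM in OE-CTD. The lowest OE-CTD library was just above the highest CT-CTD library. On western diet the values were 1.70, 0.580 and 1.87 CPM in CT-WD and 1.44, 1.89, 1.40 and 1.53 CPM in OE-WD, and there the groups overlapped. The log2 fold change of Sphk1 for OE-CTD against CT-CTD was 1.03 ± 0.38 (SE), which failed the correction, with an adjusted p of 0.190 by edgeR's quasi-likelihood test with Benjamini-Hochberg adjustment (unadjusted p 0.0164). For OE-WD against CT-WD it was 0.17 ± 0.36 (SE).

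Sphk2 (chr7 45709467 to 45718002, minus strand) was the more abundant kinase, at 14.4 to 21.7 CPM. Its log2 fold change for OE-CTD against CT-CTD was -0.05 ± 0.12 (SE; adjusted p 0.891 by edgeR's quasi-likelihood test with Benjamini-Hochberg adjustment), and this sign turned, to 0.08, without CT-CTD replicate 1. On western diet the 4 OE-WD libraries (17.1, 14.4, 17.5 and 18.2 CPM) lay below the 3 CT-WD libraries (20.4, 21.7 and 19.5 CPM), a log2 difference of -0.29 ± 0.12 (SE). The position of Sphk2 limits its reading, since 539 of its 4159 exon bases are shared with Dbp, a clock-controlled transcription factor gene, and 373 with Rpl18, a ribosomal protein gene, both on the opposite strand, and whether reads were counted by strand is not given. Dbp ranged over 37.3 to 150 CPM, with a log2 fold change of 0.60 for OE-CTD against CT-CTD (adjusted p 0.0599 by edgeR's quasi-likelihood test with Benjamini-Hochberg adjustment), of -0.84 for CT-WD against CT-CTD and of 1.32 for OE-WD against CT-WD. Rpl18 ranged over 141 to 197 CPM. The part of either gene in the Sphk2 values was not tested.

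The receptors pass the signal on through different G proteins: S1pr1 through Gi, S1pr2 through Gi, Gq and G12/13 with effects on vessel tone and barrier that often oppose those of S1pr1, and S1pr3 mainly through Gi and Gq. S1pr1 (chr3 115710433 to 115715072, minus strand) was the abundant one, at 40.3, 29.8 and 44.5 CPM in CT-CTD, 43.7, 47.0 and 63.9 CPM in CT-WD, 46.4, 47.8, 45.4 and 39.4 CPM in OE-CTD and 50.5, 40.3, 46.3 and 53.7 CPM in OE-WD. The groups overlapped, with 1 CT-WD library above all others. Its log2 fold change was 0.23 ± 0.15 (SE) for OE-CTD against CT-CTD (adjusted p 0.506 by edgeR's quasi-likelihood test with Benjamini-Hochberg adjustment). For CT-WD against CT-CTD it was 0.43 ± 0.16 (SE; adjusted p 0.595 by the same edgeR quasi-likelihood test and Benjamini-Hochberg adjustment, unadjusted p 0.0158), under a fold of 1.5.

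S1pr2 (chr9 20962361 to 20976781, minus strand) was low, with 35 to 144 counts per library. It measured 2.18, 2.38 and 1.67 CPM in CT-CTD, 2.96, 1.69 and 1.6 CPM in CT-WD, 3.30, 4.42, 4.41 and 3.32 CPM in OE-CTD and 3.31, 5.05, 4.38 and 3.13 CPM in OE-WD. All 8 overexpression libraries were above all 6 control libraries, the reverse of Spns2. The share of all genes that separate so is not given, and the comparison of the western diet groups carries no test. The mean was 3.86 ± 0.64 CPM (SD, n = 4) in OE-CTD against 2.08 ± 0.369 CPM (n = 3) in CT-CTD, and the log2 fold change of 0.90 ± 0.25 (SE; 1.86-fold) missed the threshold, with an adjusted p of 0.0785 by edgeR's quasi-likelihood test with Benjamini-Hochberg adjustment (unadjusted p 0.00288). The call depended on the setting: the adjusted p was 0.0220 by DESeq2's Wald test, 0.0415 by edgeR with no filter on low counts, 0.0448 in an edgeR fit of these 2 groups alone and 0.0327 by edgeR without CT-WD replicate 1, over a range of 0.0220 to 0.300 among all alternatives with Benjamini-Hochberg adjustment. On western diet the difference was of like size, 0.91 ± 0.25 (SE).

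S1pr3 (chr13 51408639 to 51422797, plus strand) measured 8.82, 8.87 and 9.17 CPM in CT-CTD, 9.54, 6.86 and 7.60 CPM in CT-WD, 11.7, 11.8, 9.85 and 10.1 CPM in OE-CTD and 10.9, 11.5, 10.2 and 10.6 CPM in OE-WD. Here too all 8 overexpression libraries were above all 6 controls, by a small step and with the same limits. The log2 fold change for OE-CTD against CT-CTD was 0.28 ± 0.12 (SE), below a fold of 1.5, with an adjusted p of 0.272 by edgeR's quasi-likelihood test with Benjamini-Hochberg adjustment (unadjusted p 0.0372), and on western diet it was 0.43 ± 0.12 (SE).

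The exits of the pathway are Sgpl1, the lyase that degrades the lipid irreversibly in the endoplasmic reticulum, and the phosphatases Sgpp1 and Sgpp2, which return it to sphingosine. Sgpl1 (chr10 61098642 to 61147703, minus strand) ranged over 7.16 to 13.3 CPM in controls and 11.2 to 17.6 CPM with overexpression, and 6 of the 8 overexpression libraries were above all 6 controls. Its log2 fold change was 0.31 ± 0.17 (SE) for OE-CTD against CT-CTD (adjusted p 0.421 by edgeR's quasi-likelihood test with Benjamini-Hochberg adjustment) and 0.54 ± 0.17 (SE) for OE-WD against CT-WD, where the groups overlapped. Sgpp1 (chr12 75714249 to 75735729, minus strand) stayed within 15.6 to 21.6 CPM in all groups, with log2 fold changes of -0.05 ± 0.13 (SE) and 0.05 ± 0.13 (SE) for the same comparisons.

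Sgpp2 (chr1 78310345 to 78420289, plus strand) was barely detected. It had 6 counts in OE-CTD replicate 1, 2 in CT-CTD replicate 1 and in OE-WD replicate 4, 1 in CT-CTD replicate 3, OE-CTD replicate 2 and OE-WD replicate 3, and 0 in the other 8 libraries. A count of 0 allows up to 3 counts, or 0.0990 to 0.153 CPM over the libraries, so no difference in this phosphatase was detectable at this depth; such floors cover counting error only.

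The members also vary among themselves inside the groups. Over the 14 libraries with each group's mean removed, Pearson's r of log2 CPM with Spns2 was -0.668 for S1pr2, -0.648 for Sgpp1, -0.571 for Sgpl1, -0.439 for S1pr3, -0.361 for Sphk1, -0.295 for Sphk2 and 0.18 for S1pr1. Among pairs without Spns2 it ran from -0.618 (S1pr1 with S1pr2) to 0.663 (S1pr2 with Sgpp1). Replicate 1 of CT-CTD and of CT-WD had the lowest Spns2 of its group (90.6 and 86.0 CPM). It also had the highest Sgpp1 (21.6 and 20.7 CPM) and Sgpl1 (13.3 and 12.6 CPM) of its group. The correlations without these libraries were not computed. All r values are descriptions, since the genes share the libraries, their depth and their scaling.

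Of the rest of the pathway, 48 listed genes were in the table and 43 were tested. For OE-CTD against CT-CTD 1 was altered, Klf2, a shear-stress-induced transcription factor of endothelium that drives S1pr1; 2 passed the fold with an unadjusted p under 0.05, Klf2 and the ceramide synthase gene Cers6 (log2 0.92), and 0 passed in the other direction. As shares of the 43, both are near or below the 1.91% and 7.12% of all genes. Of the 43 genes 27 had positive values, with a median log2 fold change of 0.06 against -0.0007 for all genes. By sublist, positive values were found for 0 of 4 transport and carrier genes, 0 of 2 other receptors, 1 of 3 lipid phosphatases, 2 of 4 ceramidases, 7 of 12 genes of ceramide synthesis, 7 of 8 sphingomyelin and other ceramide enzymes, 1 of 1 gene after the lyase, 7 of 7 receptor G proteins and 2 of 2 transcription factors. In OE-WD against CT-WD the same sublists, in that order, had 2, 1, 2, 3, 8, 4, 1, 4 and 1 positive values.

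Klf2 measured 28, 20.2 and 16.9 CPM in CT-CTD, 25.3, 32.7 and 54.3 CPM in CT-WD, 32.2, 37.7, 93.1 and 59.1 CPM in OE-CTD and 33.3, 32.1, 52.8 and 31.8 CPM in OE-WD. All 4 OE-CTD libraries were above all 3 CT-CTD libraries, replicates 3 and 4 the most, whereas the western diet groups overlapped each other. It rose 2.56-fold in OE-CTD against CT-CTD (log2 1.35 ± 0.35, SE; adjusted p 0.0492 by edgeR's quasi-likelihood test with Benjamini-Hochberg adjustment), and the log2 fold change for OE-WD against CT-WD was 0.00. The call is a narrow one. It was lost in 15 of 24 alternatives, among them all 3 limma settings (adjusted p 0.0990 to 0.199 with Benjamini-Hochberg adjustment), and over the 24 the adjusted p by edgeR, DESeq2 or limma ran from 0.000126 to 0.222. Without CT-CTD replicate 1, 2 or 3 the adjusted p by edgeR with Benjamini-Hochberg adjustment was 0.0544, 0.182 and 0.222, without CT-WD replicate 2 0.0550, without OE-CTD replicate 2, 3 or 4 0.0649, 0.147 and 0.0718, and without any 1 of the OE-WD libraries 0.0536 to 0.0629; without replicate 4 of both overexpression groups it was 0.0755. These alternatives were chosen after seeing the data. The log2 fold change was lowest, at 0.98, without OE-CTD replicate 3.

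In the other tests 0 of the 43 pathway genes were altered by edgeR. With an unadjusted p under 0.05 and the fold, Klf2 (log2 0.79) and Klf4 (0.95) passed for CT-WD against CT-CTD, and 0 genes did for OE-WD against OE-CTD. For OE-WD against CT-WD, the G protein gene Gnai1 (0.91) and the ceramidase gene Acer2 (-0.68) did, and for the interaction Klf2 (-1.35) and Klf4 (-1.23). Klf4 measured 16.5, 14.9 and 18.2 CPM in CT-CTD and 18.4, 19.7 and 57.7 CPM in CT-WD. Its CT-WD value thus rests largely on replicate 3.

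Other ways in and out of the pathway were measured too. Mfsd2b, the exporter of red cells and platelets, was at a mean of 3.07 CPM (log2 fold change -0.39 for OE-CTD against CT-CTD), and Apom, the plasma carrier, had 0 to 4 counts per library and was not tested, as were Acer1, Sptlc3, Cers3 and Degs2. The receptors S1pr4 and S1pr5, known best from immune and glial cells, were at 1.73 and 0.562 CPM (-0.49 and -0.11). Plpp3, a surface phosphatase that removes extracellular sphingosine 1-phosphate, was abundant at 93.3 CPM (-0.09). Upstream, the acid ceramidase gene Asah1 was at 15.1 CPM (0.27 ± 0.12, SE) and Cers1, the main ceramide synthase gene of muscle, at 17.9 CPM (-0.24), and after the lyase Aldh3a2, which oxidises its aldehyde product, was at 15.6 CPM (0.15). These 7 tested genes had adjusted p of 0.261 or more by edgeR's quasi-likelihood test with Benjamini-Hochberg adjustment. Mouse Myc itself was at 3.06 to 13.3 CPM. Its log2 fold change for OE-CTD against CT-CTD was 0.16 ± 0.32 (SE; adjusted p 0.863 by edgeR's quasi-likelihood test with Benjamini-Hochberg adjustment). For CT-WD against CT-CTD it was 0.84 (unadjusted p 0.0235 and adjusted p 0.604 by the same edgeR test), past the fold before adjustment only. For OE-WD against CT-WD it was -0.49, and for OE-WD against OE-CTD 0.18. The transgene's own human MYC reads are not analysed here.

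On control diet, markers of other cell types differed between genotypes before adjustment. Of the fibroblast markers 5 of 5 passed an unadjusted p under 0.05 with the fold for OE-CTD against CT-CTD, 0 of 5 after adjustment by edgeR. The most abundant was the collagen gene Col1a2 (268 CPM) and none was at 0. Their sum was 459, 348 and 316 CPM in CT-CTD, 1095, 326 and 306 CPM in CT-WD, 958, 1157, 1001 and 636 CPM in OE-CTD and 769, 1885, 1066 and 747 CPM in OE-WD. Only CT-WD replicate 1 among the controls was in the overexpression range, and it also had the highest S1pr2 and the lowest Spns2 of its genotype. Of the 6 macrophage markers, led by Csf1r (13.4 CPM), 5 passed at the unadjusted p and 0 after adjustment, with sums of 22.2 to 68.5 CPM in controls and 41.5 to 72.6 CPM with overexpression. On western diet (OE-WD against CT-WD), 2 of 5 fibroblast markers (median log2 fold change 0.58) and 0 of 6 macrophage markers (median 0.19) passed at the unadjusted p with the fold, and 0 of either list by edgeR after adjustment. The part of fibroblasts and macrophages in the S1pr2, S1pr3, Sgpl1 and Spns2 values was not tested.

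The labelled tissue was plain in the markers. The 5 skeletal muscle genes summed to 72975 to 98615 CPM, led by Acta1 at a mean of 42921 CPM, fast fibre genes to 62535 to 95617 CPM, led by Myh4 at 48980 CPM, and slow fibre genes to 2335 to 3626 CPM, led by Myh7 at 1207 CPM. Lymphatic endothelial markers, led by Flt4 at 8.80 CPM, summed to 15.7 to 24.6 CPM in controls and 21.5 to 30.9 CPM with overexpression, and smooth muscle and pericyte markers, led by Rgs5 at 205 CPM, to 404 to 480 and 433 to 535 CPM. Adipocyte markers, led by Fabp4 (216 CPM), ranged over 156 to 410 CPM, red cell markers, led by Hba-a1 (138 CPM), over 125 to 382 CPM, and keratinocyte markers, led by Trp63 (12.2 CPM), over 15.1 to 103 CPM. Lymphocyte markers were near 0, at 0.0794 to 0.817 CPM summed, with Cd4 (0.159 CPM) the most abundant and 0 of 8 tested. In all of these lists 0 genes were altered by edgeR in any of the 5 tests; for OE-CTD against CT-CTD, 1 lymphatic, 1 smooth muscle and 1 adipocyte marker passed at the unadjusted p with the fold.

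The genes whose levels followed Spns2 most closely over the 14 libraries, among 12745 genes, were Gm7993 and Slc16a3 (Pearson's r of log2 CPM 0.970 each), Rab12 (0.966), Mpp5 (0.965) and Syne1 (0.958). Slc16a3 encodes the lactate exporter of fast glycolytic muscle. With each group's mean removed, the closest were Ndufv2 (0.965), Ndufa11 (0.955), Gm9115 (0.954), Vdac2 (0.949) and Mpc1 (0.941), of which Ndufv2, Ndufa11, Vdac2 and Mpc1 are nuclear genes for mitochondrial proteins. The first list carries the genotype difference and the second only the spread inside groups, and all points share libraries and scaling.

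Overlaps of the other members with annotated genes were counted as well. Spns2 shares 131 of its 4083 exon bases with Mybbp1a on the opposite strand, a gene at 98.0 to 134 CPM with a log2 fold change of 0.06 for OE-CTD against CT-CTD (adjusted p 0.828 by edgeR's quasi-likelihood test with Benjamini-Hochberg adjustment). Sphk1 shares 192 exon bases with Gm29292 (0 to 3 counts per library) and S1pr3 shares 45 with Gm32834 (at most 1 count). Sgpp2 shares 248 with Farsb, and Gm28410, Gm37884 and, within Sgpl1, Gm44308 share 0 exon bases with them.

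Because c-Myc binds the E-box CACGTG, which reads the same on both strands, windows of 250 bases before to 50 bases after annotated starts (RefSeq, GRCm38.p6) were searched for it. Of all 32851 windows 2349 hold it (7.15%), and 8 of the 9 members have windows, 13 in all. It was found in 3 windows of 2 members, 2 overlapping windows of Sphk1 that share 1 match and 1 window of Sgpp2. For Spns2 the table's start lies 14877 bases inside the gene, in intron 1 of the GENCODE M21 transcript that starts furthest upstream. The window printed is thus an intronic stretch and not the sequence before that transcript's start at 72489904. The stretches shown are the 250 bases before the listed start of Spns2, on the minus strand at chr11:72475028-72475277, with no match, and 30 bases around the matches of Sphk1, on the plus strand at chr11:116532337-116532366, and Sgpp2, on the plus strand at chr1:78310114-78310143. The Sphk1 stretch lies inside that gene's span, in an intron, and within the span of Gm29292, and the Sgpp2 stretch lies before the gene's span. They let the reader see the letters at the altered gene and at both matching members, and capitals mark the E-box. No protein was measured at these places, and a match is a description of letters alone.
Spns2: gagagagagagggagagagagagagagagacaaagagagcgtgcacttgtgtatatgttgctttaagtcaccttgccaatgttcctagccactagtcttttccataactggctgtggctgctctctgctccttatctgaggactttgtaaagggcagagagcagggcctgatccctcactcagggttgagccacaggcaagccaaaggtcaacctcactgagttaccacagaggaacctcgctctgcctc
Sphk1: catacaccggggCACGTGtgcattttcacc
Sgpp2: gcataggtcatgCACGTGgacccgtccacg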

How the data were processed

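Gene counts and FPKM were taken as deposited by the authors, who aligned reads with HISAT2 2.0.5 to mm10 and counted them with featureCounts 1.5.0-p3; the strand setting is not given. Counts of all 14 libraries were fitted in 1 edgeR 4.0.16 model (R 4.3.3) with a mean per group, TMM scaling, genes kept by filterByExpr by group, the quasi-likelihood test and Benjamini-Hochberg adjustment over 15458 genes. DESeq2 1.42.0 (Wald test) and limma 3.58.1 (log2 of FPKM plus a pseudocount) served as alternatives. Apart from limma, FPKM were used only to compare genes with each other. CPM divide counts by library size times TMM factor.

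The members and all gene lists were chosen with earlier results of these data known. Genes named are the 9 members, pathway genes that were altered or passed an unadjusted p under 0.05 with a fold over 1.5 in any of the 5 tests, 9 pathway genes always named, Myc, genes overlapping a member, the 5 genes most like Spns2 by each of 2 measures, and each marker list's most abundant gene and those at 0. Tek, Cdh5 and Sox18 among the endothelial markers, and the neighbours of Spns2 on its chromosome, were named besides. The labels name no pairs. Libraries of equal replicate number were correlated across genes after subtracting group means: CT-WD with CT-CTD gave 0.385, 0.123 and 0.203, all above 0.1, so the numbers were taken to pair the control libraries, on the sole ground of that check, and OE-WD with OE-CTD gave 0.0711, 0.138, 0.142 and 0.338. The pairing enters only as an alternative, the replicate block.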

Additional observations from a re-analysis of the deposited data

Results flagged for a closer look

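Sgpp2 in OE-CTD replicate 1, at 0.23 CPM from 6 counts, lay far from the other 3 OE-CTD libraries. It was the 1 such value among 18 groups of 4 libraries checked, and chance gives about 1 in 20. No result rests on it, as Sgpp2 was not tested.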

How the results depend on the processing

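Spns2 kept its direction and its call for OE-CTD against CT-CTD in the 24 alternatives that keep the labels (log2 -1.77 to -1.40, adjusted p 6.24e-14 to 0.0187 by edgeR, DESeq2 or limma with Benjamini-Hochberg adjustment), and lost the call with CT-WD and OE-CTD names exchanged (-0.11). For OE-WD against CT-WD it stayed at -1.56 to -1.25 except with exchanged names (0.0799). With a replicate block over all groups the 2 differences were -1.55 (adjusted p 0.00492 by edgeR with Benjamini-Hochberg adjustment) and -1.37, and the block changed no member's call. The Spns2 to endothelial marker ratio (log2 -1.94 to -1.61) and the Spns2 to S1pr1 ratio of levels (-2.06 to -1.55) held in 17 alternatives each. With exchanged names the members altered were 1 for CT-WD against CT-CTD (295 genes in all), 1 for OE-WD against OE-CTD (87), 0 for OE-CTD against CT-CTD (0) and 0 for OE-WD against CT-WD (1). In the other alternatives the counts of both diet comparisons and of the interaction were 0.

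For OE-CTD against CT-CTD the count was 3 by unadjusted p and 2 with DESeq2, with no filter and with 2 groups only; leaving out 1 library gave 1 to 2, with 2 without CT-WD replicate 1. For OE-WD against CT-WD, where the choice of Spns2 fixed its place and nothing is read from the count, it was 2 by unadjusted p, with DESeq2 and with no filter, 0 with limma on log2(FPKM + 1) without a filter, and 3 without CT-CTD replicate 1 and CT-WD replicate 1 together, an alternative chosen after seeing the data; leaving out 1 library gave 1 to 3, with 3 without CT-WD replicate 1. S1pr2 for OE-WD against CT-WD was 0.27 with limma and 1.27 without CT-WD replicate 1, where S1pr3 was 0.58. For OE-CTD against CT-CTD, the log2 fold change over the 24 alternatives ran from 0.23 to 1.33 for Sphk1 and from 0.25 to 1.01 for S1pr2.

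Apart from the exchanged names, signs turned only where no threshold was passed. For OE-WD against OE-CTD, S1pr3 was 0.000539 with limma at a pseudocount of 0.1. For CT-WD against CT-CTD, S1pr2 was -0.00123 with limma, with or without a filter, -0.0190 at a pseudocount of 0.1 and -0.0107 with a replicate block within genotype. For OE-CTD against CT-CTD, Sgpp1 was 0.00352 with a replicate block over all groups. Without CT-CTD replicate 1 and CT-WD replicate 1 together, Sphk2 (0.0864) and Sgpp1 (0.0937) turned for OE-CTD against CT-CTD, and S1pr2 (-0.30) and Sgpp1 (0.0266) for CT-WD against CT-CTD. Without OE-CTD replicate 4 and OE-WD replicate 4, Sphk1 (0.0265) and S1pr1 (-0.0244) turned for OE-WD against OE-CTD. Leaving out 1 library spread the values across 0, for CT-WD against CT-CTD, of Spns2 (-0.318 to 0.0708), S1pr2 (-0.334 to 0.182) and Sgpp1 (-0.116 to 0.125), for OE-WD against OE-CTD, of Sphk1 (-0.265 to 0.0124), Sphk2 (-0.0857 to 0.0232), S1pr2 (-0.101 to 0.135), S1pr3 (-0.0475 to 0.0380) and Sgpl1 (-0.135 to 0.0704), and for OE-CTD against CT-CTD, of Sphk2 (-0.155 to 0.0815) and Sgpp1 (-0.137 to 0.0877); S1pr1 for OE-WD against OE-CTD reached 0.166. For OE-WD against CT-WD, which carries no test, the alternatives crossed 0 for Sphk1 (-0.183 to 0.429), S1pr1 (-0.218 to 0.0727) and Sgpp1 (-0.0303 to 0.162), each by leaving out 1 library. The cause was not tested.

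Limits: each group holds 3 or 4 libraries, not stated to be separate mice where codes share a number, genotype cannot be told apart from what the library codes record, and bulk RNA does not locate a transcript in a cell type. Sphk1, S1pr2 and Sgpp2 had too few counts for small differences to be detectable. Messenger RNA was measured, not the lipid, its transport or any protein. Every genotype difference rests on labels whose group sizes differ from a legend of the study.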

Other observations

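Of the 5 genes on either side of Spns2 on chromosome 11, described here after their values were seen, 1 passed the test, Tekt1. Over all genes, 295 of 15458 (1.91%) were altered for OE-CTD against CT-CTD, with a median log2 fold change of -0.0007. A fall of the region as a whole was not tested. Tekt1, a gene for a filament protein of cilia, fell in OE-CTD against CT-CTD (log2 -1.42 ± 0.27, SE; adjusted p 0.0137 by edgeR's quasi-likelihood test with Benjamini-Hochberg adjustment). It measured 5.69, 13.3 and 12 CPM in CT-CTD, 5.35, 7.05 and 7.82 CPM in CT-WD, 4.33, 3.04, 3.50 and 4.59 CPM in OE-CTD and 4.98, 3.93, 5.78 and 3.01 CPM in OE-WD. The OE-CTD libraries were below all CT-CTD libraries, and on western diet the groups overlapped. The call was lost in 5 of 24 alternatives chosen after seeing the data, with adjusted p by Benjamini-Hochberg of 0.0807 and 0.0791 by edgeR without CT-CTD replicate 2 or 3, 0.0557 and 0.0522 without OE-CTD replicate 2 or 3, and 0.0946 by limma with no filter, within a range of 3.57e-05 to 0.0946. Spns3, a relative of Spns2, had a log2 fold change of -1.26 (adjusted p 0.147 by edgeR's quasi-likelihood test with Benjamini-Hochberg adjustment), and the other 8, none of which passed, gave -1.18 for Ggt6, -0.73 for Mir6338, -0.54 for Smtnl2, -0.33 for Cyb5d2, -0.25 for Zzef1, -0.15 for Ube2g1, -0.01 for Ankfy1 and 0.06 for Mybbp1a. Spns3 and Ggt6 were scarce, at means of 0.544 and 0.582 CPM. In OE-WD against CT-WD the values were -0.61 for Tekt1, -0.55 for Ggt6, -0.37 for Spns3, -0.18 for Mir6338, -0.13 for Smtnl2, -0.07 for Cyb5d2, -0.03 for Zzef1 and Ube2g1, 0.02 for Mybbp1a and 0.09 for Ankfy1.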
